A study of Mus musculus with 3 samples.

Results

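The genes of the natriuretic peptide system were followed through 3 sorted populations of mouse embryonic stem cell derivatives. The 7 genes were chosen by symbol for their role in the system, out of 39179 genes in the deposited table. They are the peptide genes Nppa, Nppb and Nppc, the receptor genes Npr1, Npr2 and Npr3, and the protease gene Corin. The cells came from a mouse embryonic stem cell line with an eGFP reporter for Cntn2, which marks Purkinje cells of the heart, and with a lentivirus that expressed mCherry from the Myh6 promoter (αMHC in the labels), Myh6 being the alpha myosin heavy chain gene of heart muscle. All cells were treated with sodium nitroprusside, a nitric oxide donor, at day 4 of differentiation and sorted on day 25. The populations were cells positive for Cntn2:eGFP with dim αMHC:mCherry (GFP), cells positive for αMHC:mCherry (MHC) and cells negative for both reporters (NEG). Each population had 1 library, so no difference has a replicate check, no test was possible and no p-value is given.

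Values are read counts per gene divided by 1 size factor per library. Whole reads recovered from them numbered 52109065 in GFP cells, 52826956 in MHC cells and 47289405 in NEG cells, summed over genes. The 95% confidence intervals (CI) are exact and cover counting error only: without molecular identifiers, reads may be copies of 1 molecule. Genes were taken to differ when the log2(value + 1) scale put them at least 2-fold apart and the higher library reached a value of 20. This rule goes by size alone. Cntn2 had a value of 10045 in GFP cells, 228 in MHC cells and 204 in NEG cells, and Myh6 4694, 186924 and 3843 in the same order. The reporters' genes were thus highest in the populations named for them. Cells sorted as dim for mCherry had a Myh6 level close to that of the double negative cells. In bulk samples, fewer cells of a type and less RNA per cell cannot be told apart.

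Natriuretic peptides are hormones that act through cyclic GMP. Atrial natriuretic peptide (from Nppa) and B-type natriuretic peptide (from Nppb) are made by heart muscle cells, in the adult mainly by the atria, and lower blood pressure and fluid volume. Both are made as precursors, and Corin, a membrane-bound serine protease, cleaves the atrial one. They bind the guanylate cyclase receptor encoded by Npr1. C-type natriuretic peptide (from Nppc) binds the cyclase encoded by Npr2, an axis known for the growth of long bones. Npr3 encodes the clearance receptor, which lacks a cyclase domain and removes all of these peptides from the circulation. Nitroprusside raises cyclic GMP by another route, the soluble guanylate cyclases.

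Promoters of all 7 genes were found in RefSeq (GRCm38.p6, the assembly also called mm10), each from 250 bases before to 50 bases after the start. They were searched on both strands for 7 motifs. These were GATA factor sites (AGATAA or its variant AGATAG, and TGATAA or its variant TGATAG), a T-box core (TCACAC), an NK2 homeodomain site (TNAAGTG), the M-CAT site of TEAD factors (CATTCC), the SP1 GC box (GGGCGG), the core of the cAMP response element (TGACG) and the CArG box of serum response factor. Shown are the promoters of Nppa and Nppb, the peptide genes that were higher in MHC than in NEG, and of Npr1, the receptor gene that differed most. Capitals mark the matches. Nppa lies at chr4:148000472-148000771 on the plus strand, Nppb at chr4:147985650-147985949 on the plus strand and Npr1 at chr3:90465817-90466116 on the minus strand.
Nppa: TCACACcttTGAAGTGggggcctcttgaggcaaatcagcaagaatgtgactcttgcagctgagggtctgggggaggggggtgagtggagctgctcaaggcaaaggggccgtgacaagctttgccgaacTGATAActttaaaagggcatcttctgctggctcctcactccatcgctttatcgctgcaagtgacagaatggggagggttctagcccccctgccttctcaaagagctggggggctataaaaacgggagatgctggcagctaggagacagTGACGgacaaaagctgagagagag
Nppb: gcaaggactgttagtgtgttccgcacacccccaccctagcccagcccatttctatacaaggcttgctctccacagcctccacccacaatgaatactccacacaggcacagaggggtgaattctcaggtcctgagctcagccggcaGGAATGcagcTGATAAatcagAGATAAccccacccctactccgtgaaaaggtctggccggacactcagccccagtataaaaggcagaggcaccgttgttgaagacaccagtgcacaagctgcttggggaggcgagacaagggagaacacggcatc
Npr1: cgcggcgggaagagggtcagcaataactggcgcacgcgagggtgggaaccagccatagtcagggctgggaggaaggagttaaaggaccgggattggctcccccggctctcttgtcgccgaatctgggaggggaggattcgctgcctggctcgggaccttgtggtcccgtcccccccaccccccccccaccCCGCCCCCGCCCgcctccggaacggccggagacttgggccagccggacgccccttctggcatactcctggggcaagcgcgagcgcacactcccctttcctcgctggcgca

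The Nppa promoter held a T-box core, an NK2 site, a GATA site and a cAMP response core. Tbx5, Nkx2-5 and Gata4 are known activators of Nppa in the heart, and Tbx2 and Tbx3 are known repressors. Its GATA site began 122 bases before the start. The Nppb promoter held an M-CAT site that began 105 bases before the start, and GATA sites that began 95 and 84 bases before it. This RefSeq start lies inside the Nppb span of the deposited table, which opens at chr4:147985788, so these 3 sites fall within that span. The Npr1 promoter held none of these and had a pair of GC boxes that lie on the strand opposite to the printed one and so read CCGCCC in the letters above, with a G and C content of 69.7%, against a median of 52.7% over all 32851 promoters. Matches are common, with a GATA site in 29.8% of all promoters, a GC box in 35.7%, a cAMP response core in 20.8%, an M-CAT site in 14.7%, a T-box core in 14.5% and an NK2 site in 11.5%. A CArG box was in 1.63% of promoters and in 0 of the 7. A match is a description of letters and not a bound site.

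**Figure D1:**
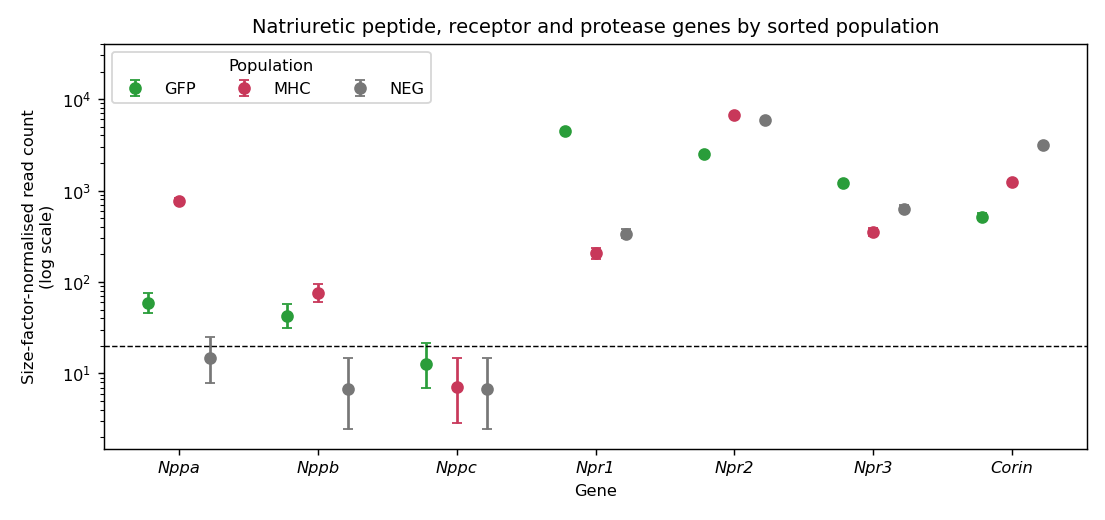
Size-factor-normalised read counts (log axis) of the 7 genes in GFP, MHC and NEG, 1 library each, with 95% Poisson intervals and a dashed line at a value of 20. Nppa and Nppb were highest in MHC, Npr1 and Npr3 in GFP, Npr2 was lowest in GFP and Corin was highest in NEG.

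Among the peptides, Nppa differed most between MHC and each other population. Nppa (ENSMUSG00000041616, chr4:148000722-148002079, protein-coding, 3 exons) had a value of 59.4 in GFP cells (65 reads), 766 in MHC cells (756 reads) and 14.7 in NEG cells (13 reads). The heart muscle reporter population stood far above the others, and GFP lay between MHC and NEG. Nppa was 12.9-fold (95% CI 9.995 to 16.9) lower in GFP cells than in MHC cells and 4.05-fold (95% CI 2.21 to 8.002) higher in GFP than in NEG. In MHC it was 52.1-fold (95% CI 30.3 to 98.4) higher than in NEG, number 10 from the top among 20572 genes tested. The summed value of 8 heart muscle markers was 12367 in GFP cells, 237730 in MHC cells and 8475 in NEG cells, with all 8 highest in MHC. The list includes Myh6, whose promoter drove the mCherry used for the sort, so its place in MHC was set by the sort. Myh6 made up most of the MHC sum, at 186924. The next largest in MHC was Tnnt2, at 3707 in GFP cells, 20600.5 in MHC cells and 3015 in NEG cells. The part of muscle cell content in the Nppa differences was not tested.

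Nppa is overlapped by the antisense gene Gm13054, which covers 72.8% of its span and 69.2% of its exon bases. Reads of Gm13054 equalled 89.2% of those of Nppa in GFP cells, 71.8% in MHC cells and 100% in NEG cells. The table's counts do not separate the strands, so Nppa is uncertain. When all reads of Gm13054 were taken off, 7 reads of Nppa were left in GFP cells, 213 in MHC cells and 0 in NEG cells. On these remaining reads Nppa was 33.7-fold (95% CI 16.1 to 84.9) lower in GFP than in MHC. It was at least 63.7-fold higher in MHC than in NEG, set against a floor of 3 reads in the NEG library, and the exact lower 95% limit of the ratio was 51.3. The direction of GFP against MHC and of MHC against NEG thus did not depend on the shared reads, whereas the GFP level above NEG rested on 7 reads.

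Nppb lies 13516 bases upstream of Nppa on the same strand, and no gene of the table overlaps it. Nppb (ENSMUSG00000029019, chr4:147985788-147987205, protein-coding) was at a value of 43.0 in GFP cells (47 reads), 76.0 in MHC cells (75 reads) and 6.78 in NEG cells (6 reads). The order was that of Nppa, but GFP was near MHC and not near NEG. Nppb was 1.77-fold (95% CI 1.21 to 2.60) lower in GFP than in MHC, within the 2-fold limit. It was 6.34-fold (95% CI 2.70 to 18.1) higher in GFP than in NEG and 11.2-fold (95% CI 4.91 to 31.5) higher in MHC than in NEG. Within a library no scaling enters the ratio of the 2 genes. There were 1.38 reads of Nppa (95% CI 0.936 to 2.06) for each read of Nppb in GFP, 10.1 (95% CI 7.94 to 12.96) in MHC and 2.167 (95% CI 0.768 to 6.95) in NEG. MHC differed from GFP in this ratio beyond counting error, while the GFP and NEG intervals overlapped. With the reads of Gm13054 taken off, the ratio was below 1 in GFP, at 0.149 (95% CI 0.0568 to 0.332), and 2.84 (95% CI 2.173 to 3.746) in MHC, with 0 reads of Nppa left in NEG against 6 of Nppb.

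Nppc was near the limit of detection everywhere. Nppc (ENSMUSG00000026241, chr1:86666293-86670573, protein-coding) had 14 reads in GFP cells, 7 in MHC cells and 6 in NEG cells, values of 12.8, 7.09 and 6.78. It was below the value of 20 in each library and so entered no count. Its ratio of GFP to NEG was 1.89 (95% CI 0.682 to 5.99) and that of GFP to MHC 1.80 (95% CI 0.682 to 5.28). No difference was detectable at this depth.

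Corin, the protease of atrial peptide processing, followed another order than its substrate. Corin (ENSMUSG00000005220, chr5:72300025-72504473, protein-coding, 24 exons) had a value of 519 in GFP cells (568 reads), 1238 in MHC cells (1222 reads) and 3163 in NEG cells (2800 reads). The double negative cells, which had the least Nppa, had the most Corin. Corin was 2.38-fold (95% CI 2.16 to 2.64) lower in GFP than in MHC, 6.09-fold (95% CI 5.56 to 6.68) lower in GFP than in NEG and 2.56-fold (95% CI 2.39 to 2.74) lower in MHC than in NEG. The reads of Nppa for each read of Corin were 0.114 (95% CI 0.0871 to 0.148) in GFP, 0.619 (95% CI 0.564 to 0.678) in MHC and 0.00464 (95% CI 0.00247 to 0.00795) in NEG. With the reads of all overlapping genes taken off both, the ratio was 0.0189 (95% CI 0.00755 to 0.0394) in GFP and 0.267 (95% CI 0.228 to 0.311) in MHC, with 0 reads of Nppa left in NEG. Corin is uncertain because the antisense transcript gene Gm20647 covers 25.3% of its span and 32.0% of its exon bases. Gm20647 had 34.0%, 32.8% and 31.5% of the Corin reads in GFP, MHC and NEG. With the reads of all 5 overlapping genes taken off, Corin was still 2.39-fold lower in GFP than in MHC, 6.29-fold lower in GFP than in NEG and 2.63-fold lower in MHC than in NEG. All 7 cartilage and bone markers were highest in NEG as well, with a summed value of 9837 in GFP cells, 414897 in MHC cells and 1275956 in NEG cells. Ibsp (293616 in MHC, 608631 in NEG) and Col2a1 (94203 and 574523) made up most of the MHC and NEG sums. Sox9 (1968 in MHC, 2281 in NEG), Runx2 (4864 and 6415), Sp7 (5945 and 10476) and Bglap (2239 and 2475) lay within 2-fold between them. The part of cartilage and bone cells in the Corin differences was not tested.

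Npr1, the receptor gene for atrial and B-type peptides, was with all reads the member that differed most between GFP and each other population. Npr1 (ENSMUSG00000027931, chr3:90450591-90465866, protein-coding, 22 exons) had a value of 4481 in GFP cells (4902 reads), 206 in MHC cells (203 reads) and 337 in NEG cells (298 reads). It was 21.8-fold (95% CI 18.9 to 25.2) higher in GFP than in MHC and 13.3-fold (95% CI 11.8 to 15.01) higher in GFP than in NEG. Against MHC its ratio was number 137 from the top of the 20879 genes tested. MHC and NEG lay within 2-fold, with Npr1 1.64-fold (95% CI 1.37 to 1.97) lower in MHC. The population with the most Npr1 was therefore not the one with the most of its ligand genes. The antisense gene Gm16048 covers 36.1% of the Npr1 span and 20.5% of its exon bases, and had 26.5%, 31.0% and 32.9% of its reads in GFP, MHC and NEG, so Npr1 is uncertain too. Without those reads Npr1 was 23.2-fold (95% CI 19.6 to 27.7) higher in GFP than in MHC and 14.6-fold (95% CI 12.7 to 16.9) higher than in NEG. The 7 epicardial and mesothelial markers were all highest in GFP, with a summed value of 158270 in GFP cells, 5651 in MHC cells and 5483 in NEG cells. Their part in the Npr1 difference was not tested.

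Npr2, the receptor gene for C-type peptide, went the other way from Npr1. Npr2 (ENSMUSG00000028469, chr4:43631935-43651244, protein-coding, 18 exons) had a value of 2531 in GFP cells (2769 reads), 6728 in MHC cells (6642 reads) and 5891 in NEG cells (5215 reads). GFP was the low population and the other two were close to each other. Npr2 was 2.66-fold (95% CI 2.54 to 2.78) lower in GFP cells than in MHC cells and 2.33-fold (95% CI 2.22 to 2.44) lower in GFP than in NEG. It was 1.14-fold (95% CI 1.10 to 1.18) higher in MHC than in NEG, beyond counting error but within 2-fold. The antisense gene Gm12473 covers 49.7% of the Npr2 span and 40.4% of its exon bases, so Npr2 is uncertain as well. Gm12473 had 44.9%, 43.3% and 45.4% of the Npr2 reads in GFP, MHC and NEG. Without those reads Npr2 was 2.74-fold lower in GFP than in MHC and 2.31-fold lower in GFP than in NEG. Spag8, which lies 90 bases past the end of Npr2, had values of only 17.4, 5.06 and 24.9 in GFP, MHC and NEG. The receptor of C-type peptide was thus abundant in all 3 libraries, while the gene of the peptide itself was barely detected.

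Npr3, the clearance receptor gene, was also highest in GFP, by less than Npr1. Npr3 (ENSMUSG00000022206, chr15:11839896-11905674, protein-coding), with no overlapping gene, had a value of 1216 in GFP cells (1330 reads), 352 in MHC cells (348 reads) and 634 in NEG cells (561 reads). The 3 levels were separated from each other beyond counting error. Npr3 was 3.45-fold (95% CI 3.06 to 3.89) higher in GFP than in MHC. Against NEG it was 1.92-fold (95% CI 1.74 to 2.12) higher in GFP, within 2-fold, and it passed the limit (log2 ratio 1.10) when libraries were scaled by their total reads. In MHC it was 1.80-fold (95% CI 1.57 to 2.06) lower than in NEG. Npr3 is also known as an endocardial gene. The summed value of 7 endothelial and endocardial markers was 734 in GFP cells, 1668 in MHC cells and 2101 in NEG cells, with 3 highest in GFP, 2 in MHC and 2 in NEG. Of the defining markers, Cdh5 had values of 5.48 in GFP cells, 9.12 in MHC cells and 9.04 in NEG cells, and Emcn and Tie1 each had 4.57, 2.03 and 1.13. Pecam1 had 15.5 in GFP cells, 34.4 in MHC cells and 33.9 in NEG cells, and Kdr had 84.1, 59.8 and 195. Tek was highest in GFP, as Npr3 was, at 503.6 in GFP cells, 224.9 in MHC cells and 277 in NEG cells. Nfatc1 had 116, 1336 and 1584, most of the summed value in MHC and NEG. The part of such cells in the Npr3 differences was not tested.

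**Figure D2:**
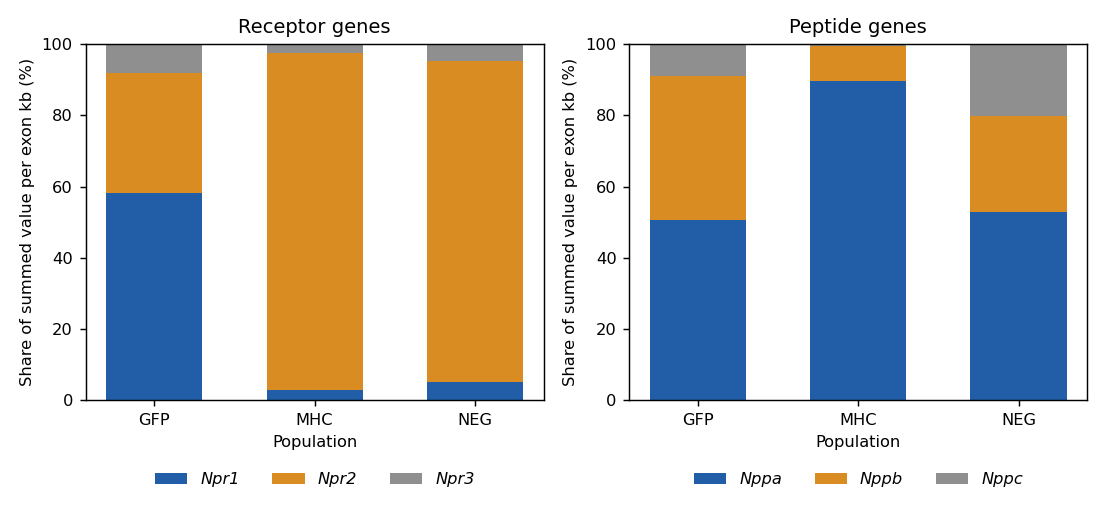
Share (%) of each receptor gene (left) and each peptide gene (right) in the summed value per kilobase of merged exons of its set, in GFP, MHC and NEG, 1 library each. Npr1 made up 58.2% of the receptor sum in GFP cells, 2.82% in MHC cells and 5.03% in NEG cells.

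Levels of different genes were compared per kilobase of merged exons (GENCODE M21). Among receptors, GFP had 937 per kilobase of Npr1, 542 of Npr2 and 129 of Npr3. In MHC these levels per kilobase were 43.0, 1442 and 37.5, and in NEG they were 70.4, 1262 and 67.5. Npr1 led in GFP and Npr2 in both other populations. With all reads the receptor sum differed little, at 1609 per kilobase in GFP cells, 1522 in MHC cells and 1400.2 in NEG cells. The sum spread wider without the reads of overlapping genes, at 1117 in GFP cells, 885 in MHC cells and 804 in NEG cells. Per kilobase of gene span, with all reads, it was 443, 367 and 337 in the same order. The ratio of Npr1 to Npr2 per kilobase was 1.73 (95% CI 1.65 to 1.81) in GFP, 0.0298 (95% CI 0.0258 to 0.0343) in MHC and 0.0558 (95% CI 0.0494 to 0.0627) in NEG. No size factor enters that ratio. The order of Npr1 and Npr3 depended on how reads and lengths were counted in MHC and NEG, while in GFP Npr1 led in each way. Per kilobase of exons, with all reads, the ratio of Npr1 to Npr3 was 1.15 (95% CI 0.958 to 1.37) in MHC and 1.04 (95% CI 0.903 to 1.202) in NEG. Per kilobase of gene span it was 2.51 in MHC and 2.29 in NEG, and per kilobase of exons without the reads of Gm16048 it was 0.790 (95% CI 0.644 to 0.964) in MHC and 0.6998 (95% CI 0.592 to 0.824) in NEG. That last ratio kept the full exon length of Npr1, of which Gm16048 covers 20.5%, and so understates Npr1. Whether Npr3 led in MHC or NEG cannot be told from it. Per kilobase of gene span, introns included, Npr1 was 66.2% of the receptor sum in GFP cells, 3.67% in MHC cells and 6.54% in NEG cells.

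Among peptides, the levels per kilobase in GFP were 68.7 for Nppa, 55.0 for Nppb and 12.3 for Nppc. They were 885, 97.3 and 6.80 in MHC, and 17.0, 8.68 and 6.50 in NEG. Nppa made up 89.5% of the peptide sum in MHC, whereas in GFP and NEG it was 50.5% and 52.8%. With all reads of Nppa, its order with Nppb was not separated beyond counting error in GFP or in NEG. With the reads of Gm13054 taken off, which may include reads of Nppa itself, Nppb led in GFP at 55.0 per kilobase against 7.40 for Nppa. The share of Nppa was then 9.90% in GFP and 70.6% in MHC, and 0 reads of it were left in NEG. These values kept the full exon length of Nppa, although Gm13054 covers 69.2% of its exon bases, so they understate Nppa. How far the lower shares come from that length was not tested. The peptide sum was 136 per kilobase in GFP cells, 989 in MHC cells and 32.2 in NEG cells, below the receptor sum of each library. In MHC this depended on the length used, since per kilobase of gene span the peptide sum was 619 and the receptor sum 367.

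**Figure D3:**
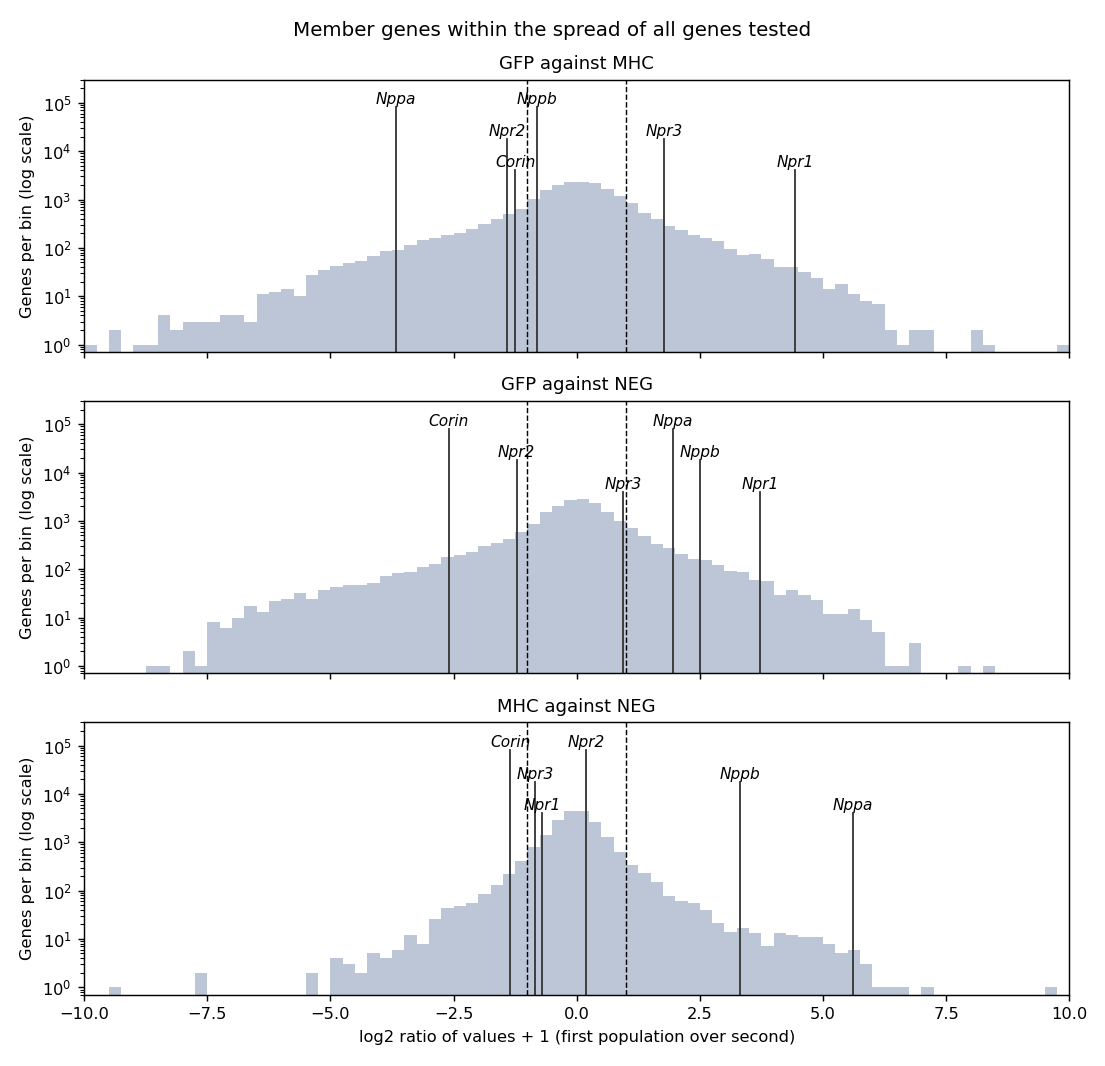
Number of genes (log axis) by log2 ratio of values plus 1 for GFP over MHC, GFP over NEG and MHC over NEG, in bins of 0.25, with the 6 member genes tested as labelled lines and dashed lines at 2-fold. Ratios beyond 10 in size stand in the outer bins. Nppa lay at 5.61 in MHC over NEG and Npr1 at 4.44 in GFP over MHC.

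Of the 7 genes, 6 reached a value of 20 in the higher library of each pair. Between GFP and MHC, 2 were higher (Npr1 and Npr3), 3 were lower (Nppa, Npr2 and Corin) and Nppb lay within 2-fold, where 31.9% of all 20879 genes tested differed, 15.6% higher and 16.4% lower. Between GFP and NEG, 3 were higher (Npr1, Nppa and Nppb), 2 were lower (Npr2 and Corin) and Npr3 lay within 2-fold, where 29.1% of 20814 genes differed, 14.1% higher and 15.0% lower. Between MHC and NEG, 2 were higher (Nppa and Nppb), 1 was lower (Corin) and the 3 receptor genes lay within 2-fold, where 10.6% of 20572 genes differed, 5.35% higher and 5.21% lower. The median log2 ratio over the 6 genes was −1.03 for GFP over MHC, 1.45 for GFP over NEG and −0.26 for MHC over NEG. Over all genes tested it was 0.01, 0.02 and −0.01. The pairs share libraries, so these counts are not independent of each other. Npr1, Npr2, Nppa and Corin differed between GFP and both other populations, and Nppa, Nppb and Corin between both reporter populations and NEG.

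**Figure D4:**
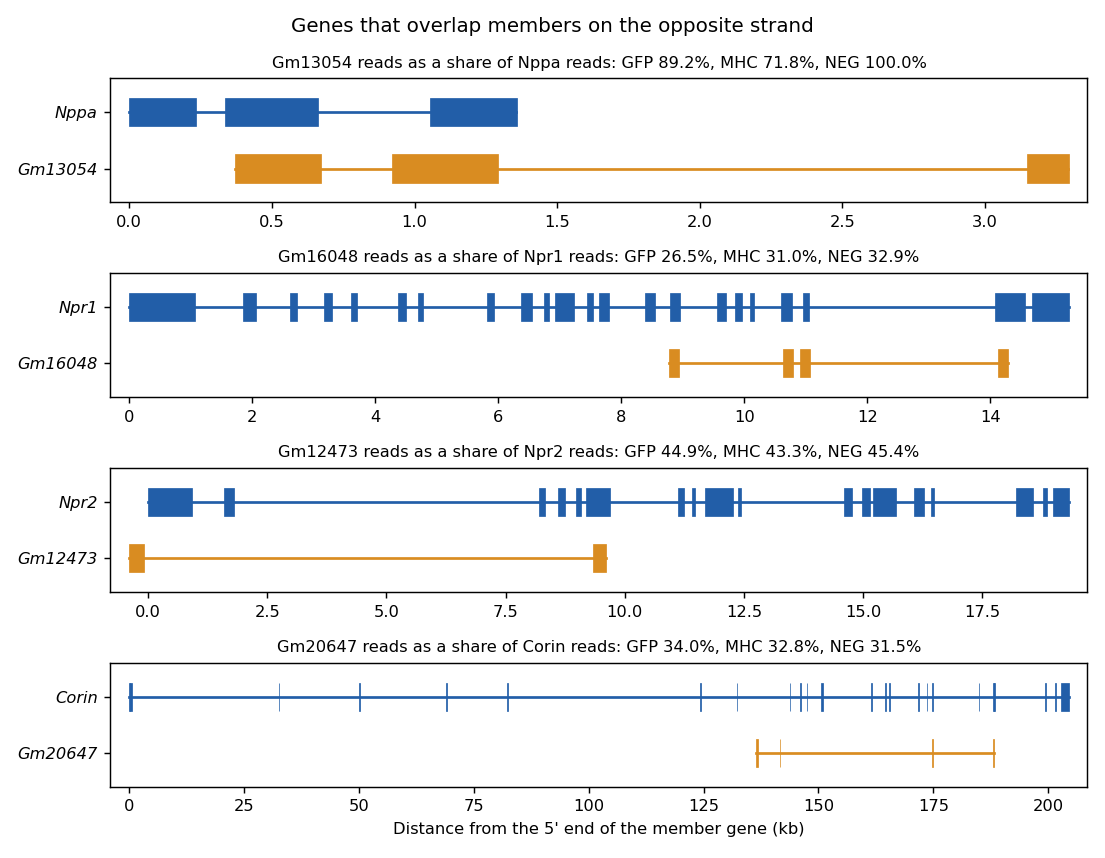
Gene models of Nppa, Npr1, Npr2 and Corin (blue) and of the opposite-strand genes that overlap them (orange), by distance in kilobases from the 5′ end of the blue gene, with boxes for merged exons. The share of reads in the overlapping gene was 89.2% for Nppa in GFP and lay between 26.5% and 45.4% for Npr1, Npr2 and Corin in the 3 libraries.

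The overlapping genes moved with the members they share reads with. Gm13054 had values of 53.0 in GFP cells, 550.0 in MHC cells and 14.7 in NEG cells, and Gm16048 had 1186, 63.8 and 111. Values of Gm12473 were 1137 in GFP cells, 2911 in MHC cells and 2675 in NEG cells. The table does not tell which partner the reads came from. For Npr1, Npr2 and Corin, the partner's share of reads varied by less than 7 percentage points between libraries, while for Nppa it ranged from 71.8% to 100%. Clcn6, the next gene past Nppa, a chloride transporter gene that lies 244 bases past the end of Gm13054, was within 2-fold in every pair, with values of 1611 in GFP cells, 1344 in MHC cells and 1118 in NEG cells.

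The rest of the pathway was described with 55 genes grouped by role, all found in the table. Between GFP and MHC, 6 of 52 tested were higher, 23 were lower and 23 lay within 2-fold, a share of 55.8% past the limit (31.9% over all genes). The median log2 ratio was −0.81. Between GFP and NEG, 8 of 51 were higher, 19 lower and 24 within 2-fold (52.9%, against 29.1% over all genes, median −0.37), and between MHC and NEG, 8 of 51 were higher, 9 lower and 34 within 2-fold (33.3%, against 10.6%, median −0.04). The list was put together with earlier results of these data known and holds genes of heart muscle and of bone, so nothing particular to the pathway is drawn from these shares.

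**Figure D5:**
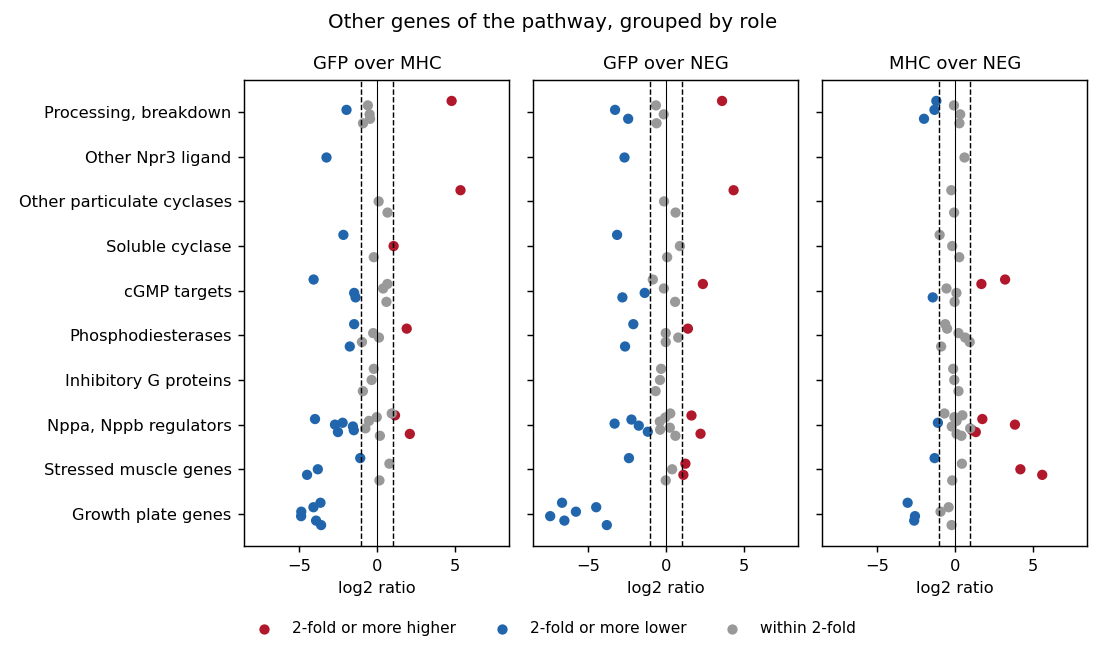
Log2 ratios of the pathway genes tested for GFP over MHC, GFP over NEG and MHC over NEG, 1 dot a gene, by role, with dashed lines at 2-fold. All 6 growth plate genes were lower in GFP in both comparisons, and the 3 inhibitory G protein genes lay within 2-fold in each pair.

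Of 6 genes of ligand processing and breakdown, 2 differed between GFP and MHC, a share near the 31.9% of all genes. Furin, whose protease cleaves the B-type precursor, had a value of 4170 in GFP cells, 7740 in MHC cells and 6312 in NEG cells, within 2-fold in every pair and chosen after its values were seen. Pcsk6, whose protease is known to activate corin, had a value of 2355 in GFP cells, 3197 in MHC cells and 12623 in NEG cells. It shared the order of Corin, being 5.36-fold lower in GFP and 3.95-fold lower in MHC than in NEG. Mme, the gene of neprilysin, which degrades the peptides, had a value of 136 in GFP cells, 529 in MHC cells and 1312 in NEG cells, in that same order. Dpp4, a dipeptidyl peptidase gene, was 28.0-fold (95% CI 22.4 to 35.3) higher in GFP than in MHC, at values of 2323, 83.1 and 191 in GFP, MHC and NEG. Dpp4 is uncertain because of reads shared with an overlapping gene. Ostn encodes osteocrin, a bone and muscle peptide that binds the clearance receptor. It had a value of 77.7 in GFP cells, 740 in MHC cells and 500.4 in NEG cells, and so was lowest where Npr3 was highest.

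Among the other guanylate cyclases, Gucy2g had a value of 249 in GFP cells, 5.06 in MHC cells and 11.3 in NEG cells. This receptor-type cyclase gene was 49.1-fold (95% CI 20.8 to 152) higher in GFP than in MHC, on 5 reads in MHC, and was thus high in the same library as Npr1. Gucy2c and Gucy2d lay within 2-fold in each pair, and Gucy2e and Gucy2f were below a value of 20 in every library. For the soluble cyclase, the target of nitric oxide, the alpha subunit gene Gucy1a3 had a value of 595 in GFP cells, 283 in MHC cells and 319 in NEG cells. The beta subunit gene Gucy1b3 had 69.5, 311 and 615, lowest in GFP, where Gucy1a3 was highest. All populations had been given nitroprusside, so these levels cannot show an effect of it.

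Downstream of cyclic GMP, the phosphodiesterase gene Pde5a had a value of 1582 in GFP cells, 421 in MHC cells and 596 in NEG cells, 3.76-fold (95% CI 3.37 to 4.19) higher in GFP than in MHC. Pde1a and Pde9a were lower in GFP, by 3.36-fold and 2.84-fold against MHC and by 6.18-fold and 4.41-fold against NEG. The protein kinase gene Prkg2 had a value of 245 in GFP cells, 636 in MHC cells and 1704 in NEG cells, in the order of Corin. Its product acts below the C-type receptor in cartilage. Phospholamban, a calcium pump regulator encoded by Pln, was 16.7-fold lower in GFP than in MHC and 9.33-fold higher in MHC than in NEG, and is uncertain because it shares reads with an overlapping gene. Rgs2, a brake on G protein signalling, had a value of 1058 in GFP cells, 664 in MHC cells and 203 in NEG cells. Mrvi1, another cyclic GMP target gene, had 173, 477 and 445, and was 2.76-fold lower in GFP than in MHC and 2.58-fold lower than in NEG. Prkg1 and Vasp, chosen after their values were seen, lay within 2-fold in every pair, and Prkg1 is uncertain because of shared reads. Gnai1, Gnai2 and Gnai3, genes of the inhibitory G proteins to which the clearance receptor couples, lay within 2-fold in every pair.

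Of 13 regulators of Nppa and Nppb, 2 were higher in GFP than in MHC, 6 were lower and 5 lay within 2-fold, where 15.6% of all genes tested were higher and 16.4% lower. Myocd, a coactivator of serum response factor, had a value of 21.9 in GFP cells, 358 in MHC cells and 105 in NEG cells. It was highest in the same library as Nppa, as were Nkx2-5 at 23.8, 139 and 54.2 and Tbx3 at 16.5, 111 and 6.78 in GFP, MHC and NEG. Tbx2, the other repressor gene and chosen after its values were seen, had 164 in GFP cells, 477 in MHC cells and 549 in NEG cells. Tbx5, chosen likewise, had 219 in GFP cells, 614 in MHC cells and 285 in NEG cells. Gata6 had a value of 12947 in GFP cells, 2999 in MHC cells and 2782 in NEG cells, and Tead1 10352, 4625 and 3318. These factor genes were highest in GFP, where the 2 peptide genes were below their MHC levels, while Gata4, chosen in the same way, lay within 2-fold at 2671, 2346 and 1749. Mef2c was highest in NEG, with a value of 1093 in GFP cells, 5042 in MHC cells and 10718 in NEG cells.

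Genes known to be raised with Nppa and Nppb in stressed heart muscle were split. Ankrd1, a muscle ankyrin repeat gene, had a value of 433 in GFP cells, 6024 in MHC cells and 328 in NEG cells, and was 13.9-fold lower in GFP than in MHC. Myh7, the beta myosin heavy chain gene, had 3304 in GFP cells, 73711 in MHC cells and 1523 in NEG cells and is uncertain because it shares reads with an overlapping gene. Both had their highest level in MHC, as Nppa did. Fhl1 was highest in NEG, at 1858 in GFP cells, 3911 in MHC cells and 9613 in NEG cells, and Rcan1, a calcineurin regulator, was highest in GFP at 3228, 1859.7 and 1360.1 in GFP, MHC and NEG. Rcan1 lay within 2-fold between GFP and MHC and was 2.37-fold higher in GFP than in NEG. Acta1, chosen after its values were seen, lay within 2-fold in every pair, at 1388 in GFP cells, 1246 in MHC cells and 1398.5 in NEG cells. Acta1 is uncertain because it shares reads with an overlapping gene.

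The growth plate genes were read because the C-type peptide and its receptor act in cartilage. All 6 were at least 2-fold lower in GFP in both comparisons, where 16.4% of all genes tested were lower against MHC and 15.0% against NEG, with a median log2 ratio of −3.99 against MHC and −6.14 against NEG. Acan, the aggrecan gene, had a value of 415 in GFP cells, 12063 in MHC cells and 71155 in NEG cells, and Fgfr3, a receptor gene that restrains bone growth, had 129, 3740 and 7092. Col2a1 had 6314 in GFP cells, 94203 in MHC cells and 574523 in NEG cells, and Runx2 had 288, 4864 and 6415. Between MHC and NEG, 3 were lower and 3 lay within 2-fold, where 5.21% of all genes tested were lower. The hypertrophic collagen gene Col10a1 led at 8.19-fold lower in MHC, but is uncertain because of reads shared with an overlapping gene. Npr2 was low in GFP as these genes were, but was 1.14-fold higher in MHC than in NEG, where Acan was 5.90-fold lower. Whether Npr2 came from cartilage-like cells was not tested.

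The genes with the most similar pattern to each member were found by the distance of centred log2(value + 1) over the 3 libraries, among 6961 protein-coding genes without overlaps. With 3 points per gene a close match is easily had, and it is given as a description. Lmod2, a leiomodin gene of heart muscle thin filaments, was nearest to Nppa at a distance of 0.51, with values of 37.5 in GFP cells, 799 in MHC cells and 12.4 in NEG cells. The atrial light chain gene Myl7 and the fatty acid carrier gene Cd36 came next. Nearest to Npr1 were Scg5, the kidney and mesoderm transcription factor gene Osr1 at 16987 in GFP cells, 710.0 in MHC cells and 1209 in NEG cells, and the junction gene Cgnl1. Those nearest to Npr2 were Foxo3, Atf4 and St6galnac6, to Npr3 Oasl2, Dhrs4 and Tmem260, and to Corin Enpp2, Chst2 and Sox13. Nppb and Nppc did not reach the value of 100 set for this search.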

How the data were processed

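Per the labels' protocols, RNA from sorted cells was made into TruSeq libraries and sequenced as single reads of 50 bases. The submitters' processing notes name DESeq2 1.2.10, STAR 2.3.0e, FastQC 0.11.2 and also bedtools 2.17.0, on build mm10, with no role stated for any. For every gene the deposited table gives a signal per library, which its steps show to be a read count that the authors divided by 1 factor per library. All values were whole multiples of 1 step (0.914 in GFP, 1.01 in MHC, 1.13 in NEG; 100% within 0.01), which gave whole reads. A count test on them was not run, because 1 library per population gives it no residual degrees of freedom.

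The counting was checked against GENCODE M21, where 70.2% of 37607 genes had an identical span. Of 1015 well-covered genes inside an intron of a host, 100% had a count no higher than the host's, as had 100% of the 577 of them on the other strand. A read is thus taken to count anywhere in a gene's span, on either strand and for every gene it overlaps. A gene is called uncertain where an overlapping gene has at least 25% of its reads.

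Ratios used Python 3.11.15, scipy 1.17.1 and a pseudocount of 1, with Clopper-Pearson intervals, and Poisson intervals for single values. edgeR 4.0.16 gave alternative scaling factors. Reads of 39179 genes were simulated with counting error only, and some well-covered genes were changed 4-fold. In each pair 100% of these were recovered by the 2-fold rule, which was nearly certain at that size and depth. The simulation does not speak for genes of few reads, such as Nppb and Nppc, or for variation between replicates. The 7 genes, the pathway list and the markers were chosen with earlier results of these data known. Named were all members, overlapping and adjoining genes, up to 3 genes per role and direction past 2-fold, and the 3 nearest patterns of each member.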

Additional observations from a re-analysis of the deposited data

How the results depend on the processing

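Of 105 recomputed member ratios, 0 changed direction among those called and 103 kept their side of the 2-fold rule. Alternatives were a pseudocount of 10, scaling by total reads, by TMM or by upper quartile, and reads less those of overlapping genes. The 103 include every ratio of Nppc, which stayed below a value of 20 and so was not called. They also include Nppb and Npr3 less overlapping reads, which could not change because no gene overlaps them. The exceptions were Npr3 for GFP against NEG, which passed 2-fold when scaled by total reads (log2 ratio 1.10), and Nppa for GFP against NEG, which fell below a value of 20 once overlapping reads were removed. Scaling by total reads moved the median of all genes by 0.17 (log2) for GFP against MHC and 0.17 for GFP against NEG, and by −0.002 for MHC against NEG. The number of members past the limit was 3 in place of 5 for GFP against MHC at 3-fold, and 3 in place of 5 for GFP against NEG with a value of 100 or more, since fewer genes were tested. Without the 4 genes that share at least 25% of their reads, it was 1 for GFP against MHC (Npr3), 1 for GFP against NEG (Nppb) and 1 for MHC against NEG (Nppb), with 2 genes tested. Taking off reads of overlapping genes, chosen after seeing the data for shares and ratios within a library, put the share of Nppa among peptides in GFP at 9.90% in place of 50.5%. The exon length was not shortened for this, which understates Nppa. Counts of pathway genes stayed within 1.5 times under every alternative run. No paired analysis was possible because each population had 1 library. Leaving out a library would leave a population with none. Depth limits Nppc in all libraries and Nppa and Nppb in NEG, at 6 to 13 reads.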
